A study of Mus musculus with 2 samples.

Results

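The genes described here encode the replication-dependent histones, which in the mouse lie together in clusters. They were taken as all protein-coding genes of the GENCODE M21 annotation of mm10 whose symbol begins with Hist1h, Hist2h, Hist3h or Hist4h. The rule gave 67 genes of 21938 protein-coding genes. By type there were 13 H4, 12 H3, 18 H2A, 18 H2B and 6 H1 genes. Cluster 1 on chromosome 13 held 54 of them, cluster 2 on chromosome 3 held 10, cluster 3 on chromosome 11 held 2 and cluster 4 on chromosome 6 held 1.

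The measurements are DNase-seq of spleen tissue from 2 male B6CASTF1/J mice at 2 months of age. B6CASTF1/J mice are F1 hybrids with a C57BL/6J and a CAST/EiJ parent, so every cell carries a chromosome set of each strain, while the reads were placed on the C57BL/6J-based genome mm10. The labels name no treatment. They number the males separately, although both carry the same donor entry, and give each library as its own biological replicate (animal 1 and animal 2, after the replicate numbers). There is no second condition, so the values describe adult spleen and the spread between these animals, and no test between conditions can be made.

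Replication-dependent histone genes are short, have no introns in most cases, and are transcribed mainly while a cell copies its DNA, when new histones are needed to package the new strands. H2A, H2B, H3 and H4 form the core of the nucleosome and H1 binds the linker DNA. Transcription takes place in histone locus bodies, which assemble around NPAT, and the messages end in a stem-loop bound by SLBP in place of a poly(A) tail. In spleen, dividing cells are a minority of a tissue made up largely of resting lymphocytes, and bulk tissue cannot tell a promoter open in few cells from one open weakly in many. DNase I cuts DNA that is not wrapped or otherwise covered, so a peak of cuts marks accessible DNA and a footprint is a short protected stretch inside it.

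Most histone promoters were accessible in both spleens. A peak of the longer deposited list within 1 kb of a transcription start site (TSS) was found for 58 of 67 histone genes in animal 1, beside 61.4% of all protein-coding genes, and for 57 of 67 in animal 2, beside 62.6%. The 57 genes of animal 2, or 85.1%, were all open in animal 1 too; a promoter peak in both was found for 59.8% of all protein-coding genes. Peak heights are given below as the authors deposited them, in a signal unit that is not stated. For the 57 genes the median of the tallest promoter peak was 5.69 in animal 1 and 4.49 in animal 2, against 5.83 and 7.03 for the 13059 other genes with a peak in both. So histone promoters were found open more often than the average promoter, while their peaks were not taller: the median histone gene lay above 41.9% of all genes open in both animals. Hist1h4c was the only histone gene among the highest 10% of these genes.

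**Figure D1:**
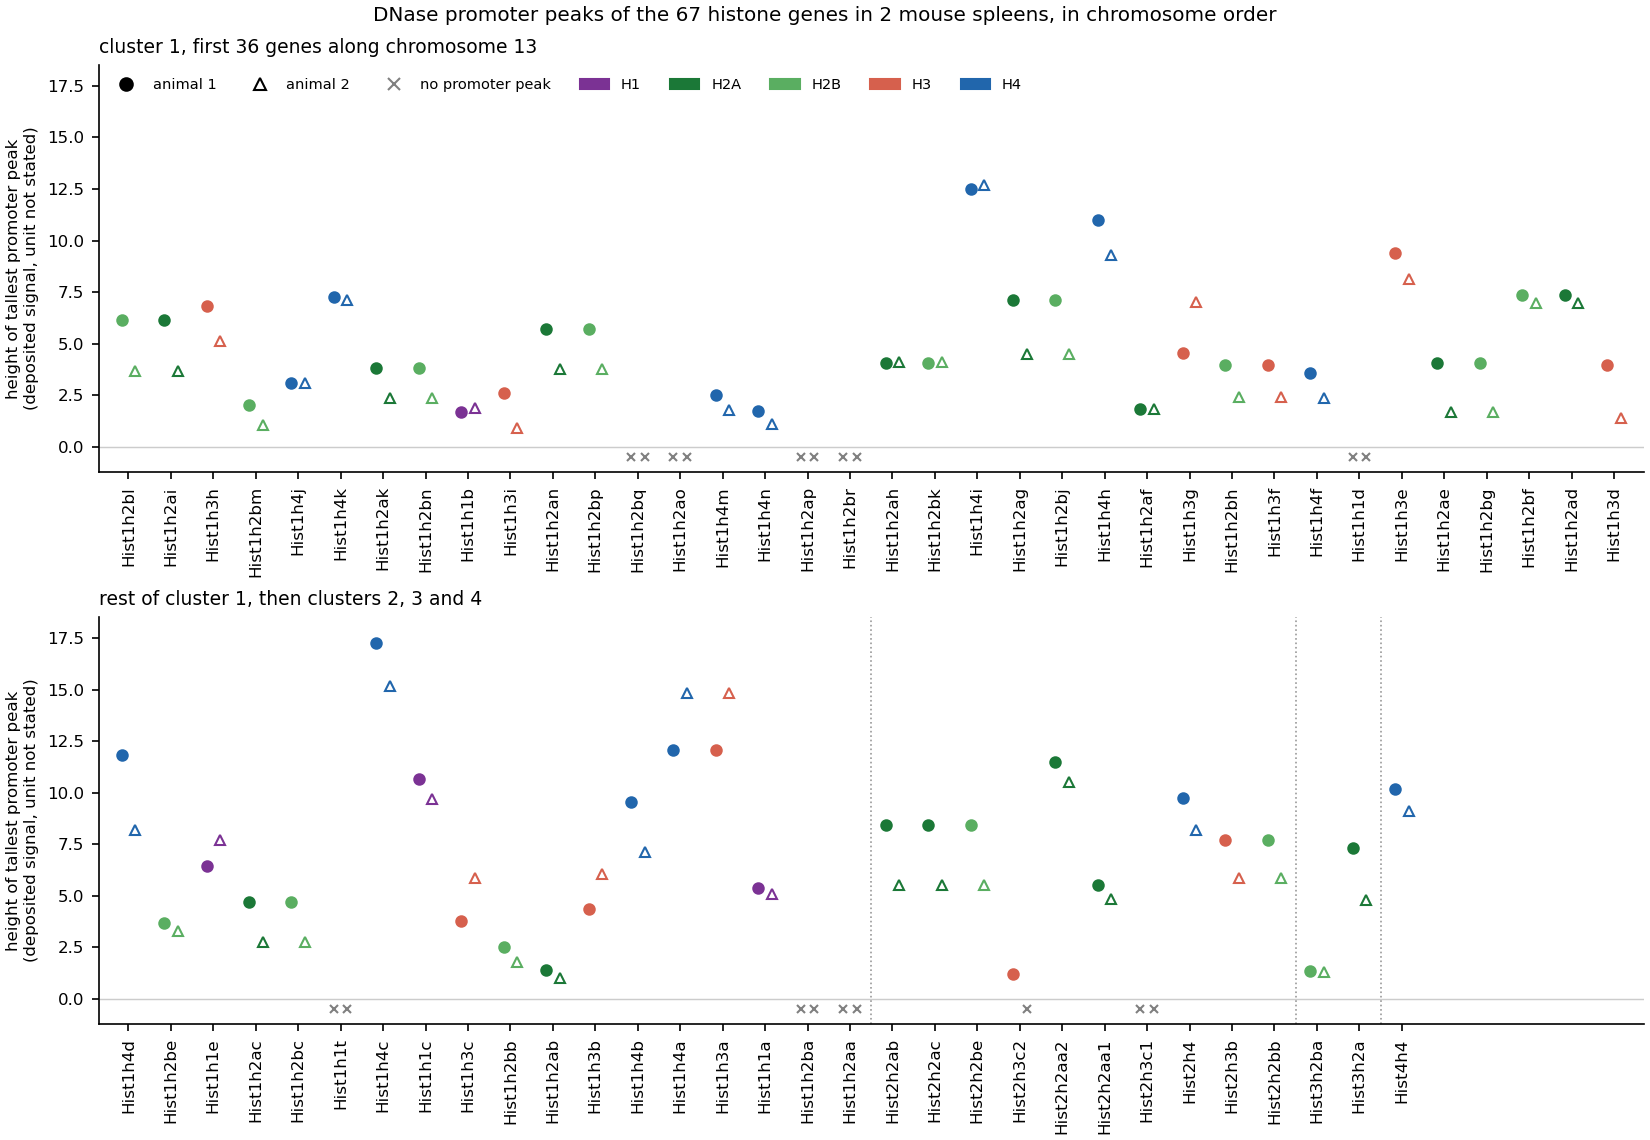
Height of the tallest promoter peak (y axis, deposited signal) for each of the 67 histone genes in chromosome order (x axis), coloured by histone type, with filled circles for animal 1, open triangles for animal 2 and crosses for no promoter peak. The H4 gene Hist1h4c stands highest at 17.2 in animal 1 and 15.2 in animal 2, and 9 genes have no peak in either animal.

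The 9 histone genes with no promoter peak in either animal fall into 4 kinds. Hist1h1t, Hist1h2aa and Hist1h2ba encode the testis forms of H1, H2A and H2B, which germ cells use. Hist1h2bq, Hist1h2ao, Hist1h2ap and Hist1h2br lie in a duplicated stretch of cluster 1, where none of the 32-base words of their core promoters (250 bp before to 50 bp after the TSS) occurs only once in the genome. Hist2h3c1, an H3 gene in another duplicated stretch, had 11.9% of such words unique, as had Hist2h3c2, which had a peak of 1.22 in animal 1 and none in animal 2. Hist1h1d had no peak near its annotated TSS, which GENCODE places 1828 bp before the coding start. A peak on chromosome 13 from 23554901 reached 4.52 in animal 1 and 3.94 in animal 2 directly before that coding start. None of the 9 had a listed interval of raised cut rate (a false discovery rate under 0.05) within 1 kb of a TSS in either animal.

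Repeated sequence moved with the missing peaks. Of the 57 histone genes with at least 50% unique words, 53 were open in both animals, and the other 4 were Hist1h1d and the testis genes. Of the 6 genes above 0 and under 50%, 4 had a peak in both, and of the 4 at 0 none had a peak. Under 50% unique were 10 of 67 histone genes (14.9%), against 7.29% of all protein-coding genes. The sources used here give neither the read length nor the treatment of reads with several matches, so closed and unmappable promoters cannot be told apart for these genes. The part of repeated sequence in the other values was not tested.

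H4 genes had the tallest promoter peaks of the 5 types by median. All 13 were open in both animals, and the median of their mean heights was 8.96, against 6.15 for H1 (4 genes), 5.50 for H3 (10 genes), 4.92 for H2A (15 genes), 3.73 for H2B (15 genes) and 6.42 for all protein-coding genes open in both. Median heights per animal were 9.74 in animal 1 and 8.19 in animal 2 for H4. Some heights of other types come from a neighbour's peak, and the order of H3 and H2A depended on the rule. With peaks in the 300 bp before the start codon, the median was 4.45 for H3 (10 genes) and 4.82 for H2A (14 genes). Of the H4 genes, 9 lay above the median gene, with mean heights from 7.18 to 16.2, and the other 4 had mean heights from 1.42 to 3.10. Types were not tested against each other, because genes of a type share peaks and sequence and only 2 animals stand behind each height.

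**Figure D2:**
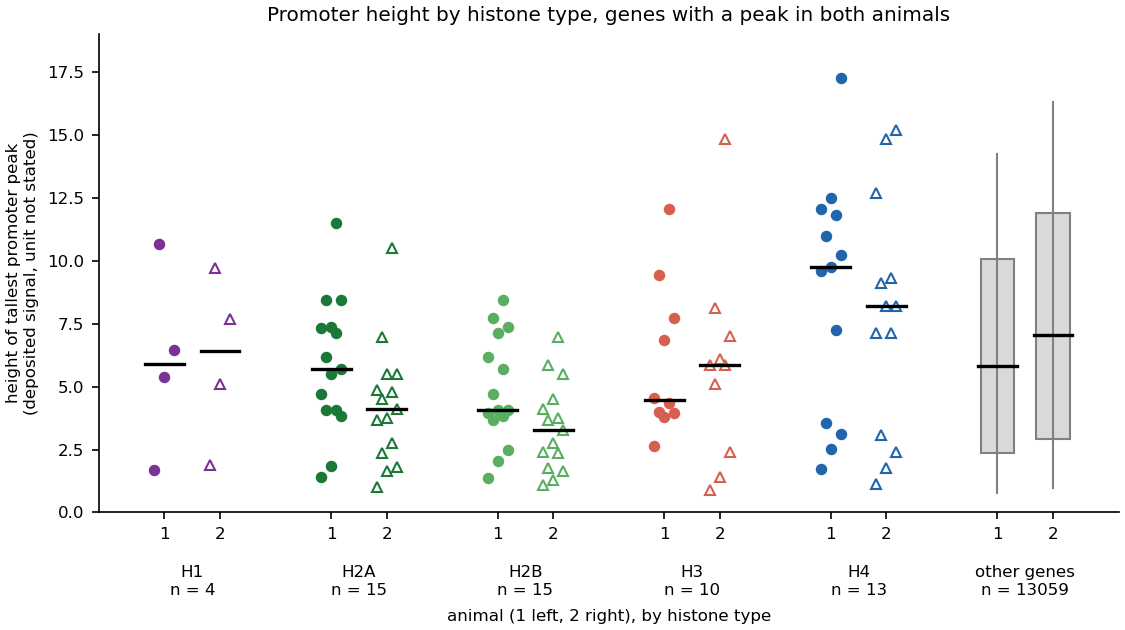
Height of the tallest promoter peak (y axis, deposited signal) of histone genes with a peak in both animals, by type and animal (x axis), with the median as a bar; for other protein-coding genes the box spans the quartiles and the line the 10th to 90th percentile. The H4 median, 9.74 in animal 1 and 8.19 in animal 2, is above that of every other type in both animals.

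Hist1h4c had the tallest histone promoter peak, with 17.2 in animal 1 and 15.2 in animal 2 (mean 16.2 ± 1.47, SD, n = 2). The peak spans chr13:23698381-23698600 in both animals, across the TSS at 23698454. Hist1h4a followed with 12.05 in animal 1 and 14.8 in animal 2. Its peak lies within 1 kb of the TSS of the H3 gene Hist1h3a as well and so counted for both, although the peak directly before the Hist1h3a coding start was lower, at 3.59 in animal 1 and 2.68 in animal 2. Hist1h4i had 12.5 in animal 1 and 12.7 in animal 2, which differed by little. Hist4h4, the lone gene of cluster 4, had 10.2 in animal 1 and 9.10 in animal 2.

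The low H4 genes were Hist1h4n, Hist1h4m, Hist1h4f and Hist1h4j. Hist1h4n had 1.72 in animal 1 and 1.13 in animal 2, and Hist1h4m had 2.51 in animal 1 and 1.77 in animal 2. Both lie in the duplicated stretch of cluster 1 with 5.58% unique words. Hist1h4f had 3.57 in animal 1 and 2.39 in animal 2, with a core promoter that is 100% unique. Low height among the H4 genes was thus found in repeated and in unique sequence.

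H4 promoters differed in sequence from the other types. RefSeq promoters (GRCm38.p6, 250 bases before to 50 after the start) were matched for 62 of the 67 genes, with 63 entries, and searched on both strands for 7 short motifs, none of which contains another. GGTCCG, the core of the H4 promoter element bound by HINFP, was in 11 of 12 H4 entries, against 1 of 17 H2B, 1 of 10 H3 and none of the H2A and H1 entries, and 8.25% of all 32851 promoters. Its first base lay 85 to 55 bases before the start codon, with a median of 80. CCAAT, the motif of NF-Y, ran the other way: 3 of 12 H4 entries held it, against every H1, H2A, H2B and H3 entry and 37.4% of all promoters. The stretches below end 1 base before the RefSeq start. They are shown because they hold the element of tall and low H4 genes alike, and some share bases beside it. Capitals mark GGTCCG and, in Hist1h4a, which lacks it, TGACGTCA, the cyclic AMP response element (CRE).
Hist1h4c, chr13:23698459-23698568, minus strand: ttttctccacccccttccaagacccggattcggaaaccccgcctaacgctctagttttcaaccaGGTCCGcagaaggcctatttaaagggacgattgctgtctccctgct
Hist1h4i, chr13:22041363-22041472, minus strand: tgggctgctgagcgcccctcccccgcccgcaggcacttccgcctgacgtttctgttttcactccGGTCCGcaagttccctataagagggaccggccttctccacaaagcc
Hist1h4d, chr13:23581458-23581567, plus strand: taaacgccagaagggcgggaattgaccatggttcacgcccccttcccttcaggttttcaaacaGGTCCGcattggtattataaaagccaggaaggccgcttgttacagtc
Hist4h4, chr6:136804432-136804541, minus strand: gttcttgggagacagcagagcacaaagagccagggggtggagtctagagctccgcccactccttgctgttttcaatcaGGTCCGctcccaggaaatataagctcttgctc
Hist1h4k, chr13:21750554-21750663, minus strand: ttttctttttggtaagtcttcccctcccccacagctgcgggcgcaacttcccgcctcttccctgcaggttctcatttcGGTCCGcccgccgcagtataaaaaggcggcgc
Hist1h4f, chr13:23551669-23551778, minus strand: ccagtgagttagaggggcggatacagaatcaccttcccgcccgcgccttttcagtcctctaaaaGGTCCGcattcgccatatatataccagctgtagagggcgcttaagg
Hist1h4m, chr13:21811636-21811745, plus strand: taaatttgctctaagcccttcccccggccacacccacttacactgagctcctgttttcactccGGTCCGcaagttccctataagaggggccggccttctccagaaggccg
Hist1h4a, chr13:23761250-23761359, minus strand: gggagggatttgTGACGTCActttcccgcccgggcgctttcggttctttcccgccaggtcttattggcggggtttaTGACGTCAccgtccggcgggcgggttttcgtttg

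Footprints covered the H4 element in nearly every H4 promoter. A match counted as covered when at least 50% of its bases lay under footprints. In 10 of the 11 H4 promoters with GGTCCG the match was covered in both animals, and Hist1h4f was the exception with no cover in either. The matches of Hist1h3i and Hist1h2bh, an H3 and an H2B gene, were covered in both animals too. Of the H4 matches that lay in a peak, 9 of 10 were covered in animal 1 and 10 of 10 in animal 2. Over all RefSeq promoters, 30.1% of 1524 GGTCCG matches in peaks of animal 1 and 30.5% of 1517 in animal 2 were covered. The CRE matches of Hist1h4a and Hist1h4h were covered in both animals as well, but so were 92.8% of the 418 CRE matches in promoter peaks of animal 1 and 92.8% of the 429 of animal 2, which sets that motif's background near full cover. A footprint over a match is a position only, since the deposited footprints carry no score.

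Seen from the start codon, H4 footprints recurred at certain distances. At 75 bases before the start codon, 12 of 13 H4 genes had a footprint in animal 1 and 9 of 13 in animal 2, and at 20 bases before it 10 of 13 had one in each animal. Between these, at 50 bases before the start codon, 2 of 13 H4 genes had one in animal 1 and 2 of 13 in animal 2. The highest share for a base in the other types was 64.3% in animal 1 and 57.1% in animal 2 for H2A, 60% and 40% for H2B, 70% and 60% for H3, and 80% and 60% for H1, with 5 H1 genes only. The number of footprints per peak did not set the H4 genes apart: the median over tallest promoter peaks was 4 for H4 and 4 for all protein-coding genes. Hist1h4c is shown with the bases under a footprint in both animals in capitals, up to 1 base before its RefSeq start. The run of capitals nearest the start holds the GGTCCG match of the same promoter above.
Hist1h4c with footprints, chr13:23698459-23698658, minus strand: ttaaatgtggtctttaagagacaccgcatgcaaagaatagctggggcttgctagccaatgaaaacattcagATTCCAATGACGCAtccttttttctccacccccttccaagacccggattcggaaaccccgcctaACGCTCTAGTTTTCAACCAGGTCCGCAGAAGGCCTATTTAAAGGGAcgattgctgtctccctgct

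**Figure D3:**
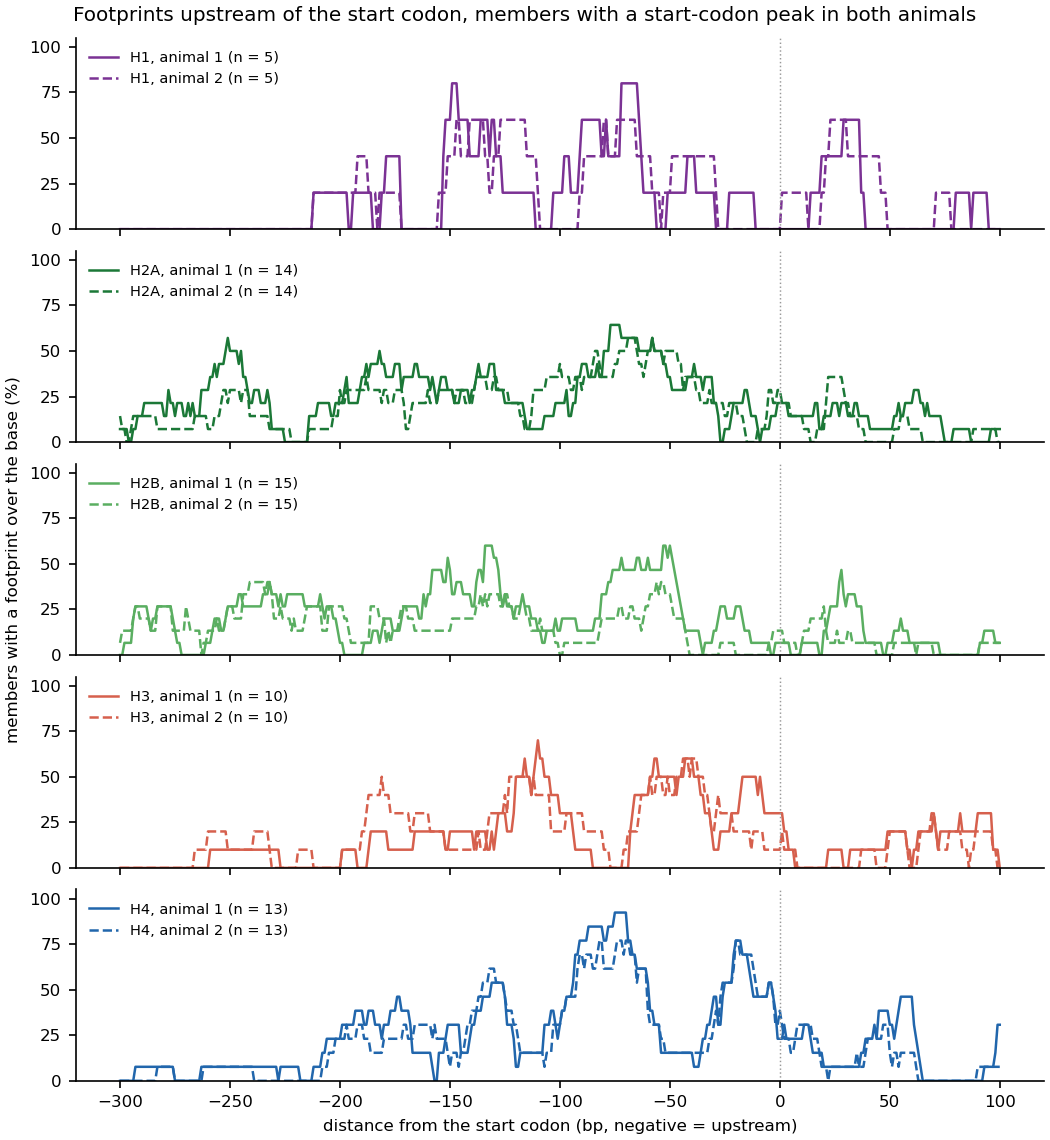
Share of histone genes with a footprint over each base (y axis, %) against distance from the start codon (x axis, bp, negative upstream) by type, for genes with a peak in the 300 bp before the start codon in both animals; solid lines are animal 1 and dashed lines animal 2. H4 genes rise to 92.3% at 75 bp before the start codon in animal 1, while H2A and H2B footprints are spread over a wider stretch.

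H1 genes had peaks of intermediate height. Of the 6 genes, 4 were open in both animals by the TSS rule, and Hist1h1d is added when the peak before the start codon is taken. Hist1h1c had 10.7 in animal 1 and 9.69 in animal 2 in a peak that starts on chromosome 13 at 23739601, downstream of its coding start at 23738849. The peak directly before its start codon had 8.77 in animal 1 and 9.21 in animal 2. Hist1h1e had 6.44 in animal 1 and 7.69 in animal 2, and Hist1h1a had 5.36 in animal 1 and 5.11 in animal 2. Hist1h1b was the lowest open H1 gene, with 1.70 in animal 1 and 1.89 in animal 2. Among the H1 genes the animals lay close together, with a median log2 ratio of animal 1 over animal 2 of -0.04.

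H1 promoters shared CCAAT, and most held a second motif before it. AAACACA, known as the H1 box, was in 5 of 6 H1 promoters, its first base at -122 to -112 from the RefSeq start, against 7.18% of all promoters, and CCAAT was in 6 of 6. TATAAA, the TATA box, was in 4 of 6, against 13.6% of all promoters. It was not particular to H1. Of the other types, 8 of 12 H4, 11 of 18 H2A, 8 of 17 H2B and 4 of 10 H3 entries held it. The H1 box match was covered by a footprint in both animals in none of the 5, but only 3 of the 5 matches lay in a peak in each animal. Over all promoters, 14.2% of 282 such matches in peaks of animal 1 and 11.9% of 269 in animal 2 were covered. With 3 matches, none covered is near that share. In Hist1h1e the match lay outside the peak and was covered in animal 1 only. The stretches below, which end 1 base before the RefSeq start (3 bases in Hist1h1a), are shown because the closed testis gene Hist1h1t carries the H1 box before the CCAAT motif, as Hist1h1b, Hist1h1c and Hist1h1e do, while the open gene Hist1h1a has no H1 box. Capitals mark the H1 box, CCAAT on either strand and the TATA box.
Hist1h1a, chr13:23763538-23763665, plus strand: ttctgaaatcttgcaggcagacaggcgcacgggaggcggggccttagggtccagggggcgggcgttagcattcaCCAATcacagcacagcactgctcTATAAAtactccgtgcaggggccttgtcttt
Hist1h1b, chr13:21780626-21780755, minus strand: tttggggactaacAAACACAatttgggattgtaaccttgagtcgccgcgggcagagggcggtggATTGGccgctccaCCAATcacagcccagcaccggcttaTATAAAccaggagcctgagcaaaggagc
Hist1h1c, chr13:23738677-23738806, plus strand: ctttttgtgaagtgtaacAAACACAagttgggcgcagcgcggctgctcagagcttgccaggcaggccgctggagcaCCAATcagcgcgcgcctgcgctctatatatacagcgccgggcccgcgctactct
Hist1h1e, chr13:23622559-23622688, minus strand: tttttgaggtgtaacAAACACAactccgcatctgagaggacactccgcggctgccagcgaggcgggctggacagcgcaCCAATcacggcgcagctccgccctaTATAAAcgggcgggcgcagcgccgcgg
Hist1h1t, chr13:23695681-23695810, plus strand: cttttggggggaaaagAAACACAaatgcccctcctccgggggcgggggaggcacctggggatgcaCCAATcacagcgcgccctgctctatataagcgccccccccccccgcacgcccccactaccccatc

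H2A and H2B genes were mostly arranged head to head, and the open pairs were assigned the same tallest peak. A divergent pair here is a pair of genes on opposite strands whose nearest TSSs are at most 1 kb apart, pointing away from each other. There were 13 such pairs of histone genes with 26 members. In 12 an H2A gene faced an H2B gene, and in 1 Hist1h2bh faced the H3 gene Hist1h3f. The TSSs were 176 to 660 bp apart, with a median of 268 bp, against a median of 106 bp for all 1232 divergent pairs of protein-coding genes. In 10 pairs both genes had a promoter peak, and in all 10 the tallest peak of both genes was the same peak in both animals, beside 91.4% of all divergent pairs with peaks at both genes. The other 3 pairs, Hist1h2bq with Hist1h2ao, Hist1h2ap with Hist1h2br and Hist1h2ba with Hist1h2aa, had no peak at all. The windows of 1 kb on each side of paired TSSs overlap, so the rule itself makes a shared tallest peak likely. A height in a shared peak cannot be given to either gene alone.

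Shared peaks covered a wide range of heights. Hist2h2ac and Hist2h2be shared a peak of 8.44 in animal 1 and 5.50 in animal 2. Hist1h2bf and Hist1h2ad shared one of 7.38 in animal 1 and 6.98 in animal 2. Hist1h2ag and Hist1h2bj shared one of 7.13 in animal 1 and 4.49 in animal 2. At the low end, Hist1h2ae and Hist1h2bg shared one of 4.07 in animal 1 and 1.66 in animal 2. In 9 of the 10 pairs the shared peak was higher in animal 1, the exception being Hist1h2ah with Hist1h2bk, at 4.06 in animal 1 and 4.09 in animal 2. For Hist1h2ae with Hist1h2bg and for Hist1h2bh with Hist1h3f the genes shared a peak within each animal, but the tallest peak was not the same stretch of DNA in both animals. The pairs were accessible over much of the DNA between the start codons, a median of 308 bp. A single peak lay there in 8 pairs in animal 1 and in 7 in animal 2, with a median width of 260 bp in animal 1 and 220 bp in animal 2. The same DNA held a median of 5.5 footprints in animal 1 and 5 in animal 2.

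**Figure D4:**
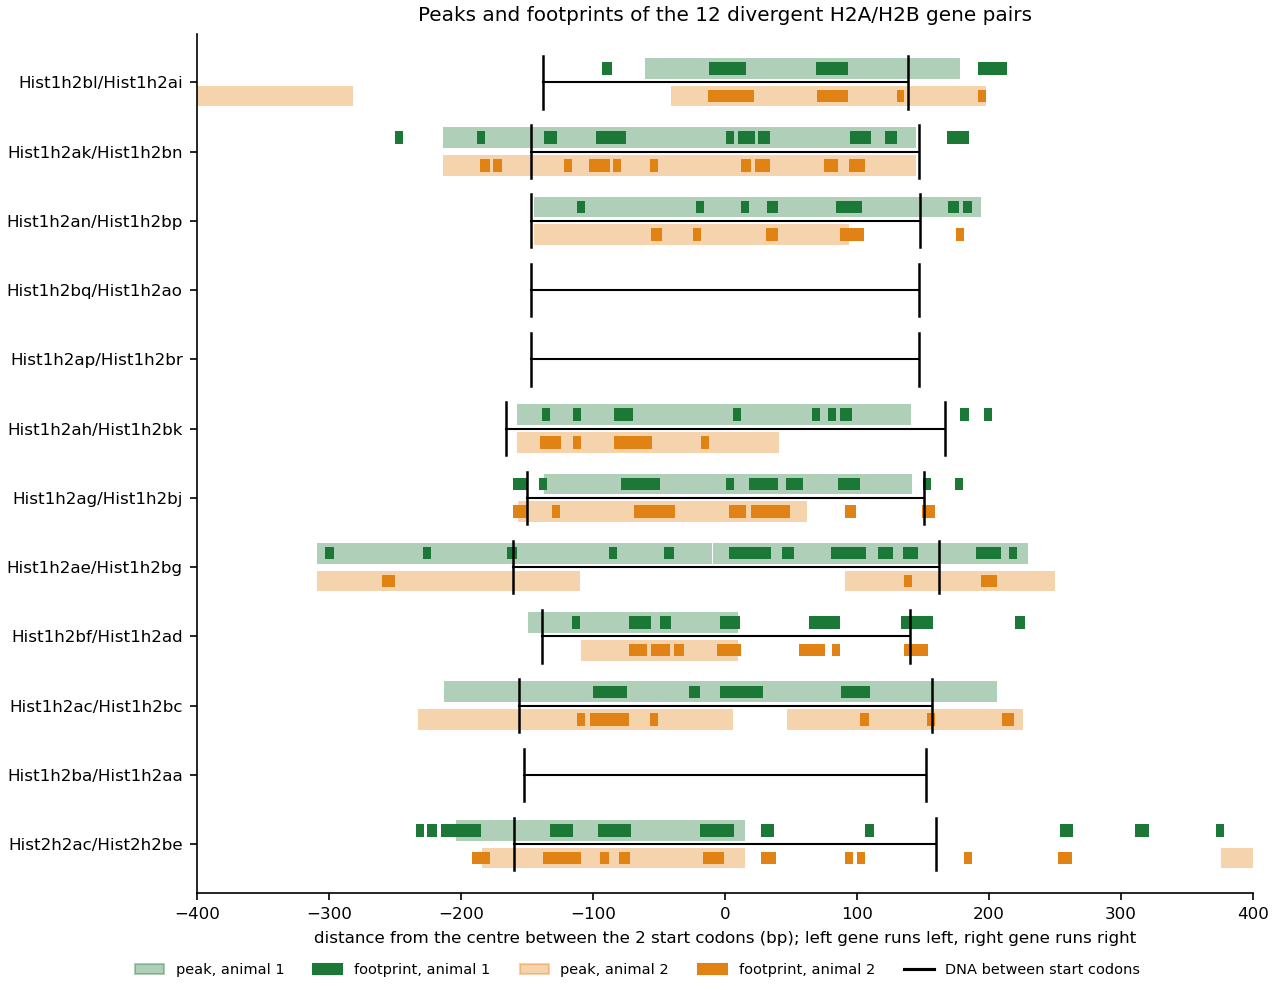
Peaks (pale) and footprints (dark) of animal 1 (green, upper track) and animal 2 (orange, lower track) around the 12 divergent H2A/H2B pairs, against distance in bp from the centre between the start codons (x axis), which are marked by vertical ticks. A peak lies between the start codons of 9 pairs in both animals, and 3 pairs have neither peaks nor footprints.

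CCAAT was found in both directions between paired genes. All 18 H2A and all 17 H2B promoter entries held CCAAT. ATTTGCAT, the octamer that OCT1 (Pou2f1) binds in H2B promoters, was in 7 of 17 H2B and 7 of 18 H2A entries and in no H1, H3 or H4 entry, against 1.74% of all promoters. Paired genes share matches, so these counts are not independent. Of the octamer matches, 1 was covered by footprints in both animals, that of the unpaired gene Hist3h2a. Octamer matches lay in a peak 10 times in animal 1 and 3 times in animal 2. Of these, 30% were covered in animal 1 and 33.3% in animal 2. That is near the share over all promoters, 30.1% of 143 octamer matches in peaks of animal 1 and 27.6% of 134 in animal 2. Of the CCAAT matches in peaks of these genes, 43.2% for H2A and 37.5% for H2B were covered in animal 1 and 48.5% for H2A and 41.9% for H2B in animal 2, against 29.98% in animal 1 and 38.6% in animal 2 over all promoters. The stretches below run between the annotated transcripts of 3 pairs and show that the motif occurs on both strands there. Capitals mark CCAAT on either strand, the octamer and the CRE.
Hist1h2ag/Hist1h2bj, chr13:22042950-22043197, plus strand: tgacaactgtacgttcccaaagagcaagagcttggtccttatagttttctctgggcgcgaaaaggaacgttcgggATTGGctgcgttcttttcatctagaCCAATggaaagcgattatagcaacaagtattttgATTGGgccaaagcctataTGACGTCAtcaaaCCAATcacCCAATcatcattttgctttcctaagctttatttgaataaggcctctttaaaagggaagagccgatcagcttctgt
Hist1h2bf/Hist1h2ad, chr13:23574208-23574380, plus strand: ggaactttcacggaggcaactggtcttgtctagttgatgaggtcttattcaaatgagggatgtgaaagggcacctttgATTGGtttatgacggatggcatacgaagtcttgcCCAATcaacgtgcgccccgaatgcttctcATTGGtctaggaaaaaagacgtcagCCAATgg
Hist1h2ah/Hist1h2bk, chr13:22035644-22035820, plus strand: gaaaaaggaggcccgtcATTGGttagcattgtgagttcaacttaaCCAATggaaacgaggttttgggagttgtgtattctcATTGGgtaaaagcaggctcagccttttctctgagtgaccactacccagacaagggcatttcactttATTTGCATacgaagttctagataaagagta

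H2A and H2B genes outside pairs ranged more widely. Hist2h2aa2 was the tallest H2A promoter, with 11.5 in animal 1 and 10.5 in animal 2, in a core promoter with 11.9% unique words. Its near copy Hist2h2aa1 had 5.51 in animal 1 and 4.85 in animal 2. Reads of such copies may be split or lost between them, so the difference between these genes is uncertain. Hist3h2a had 7.32 in animal 1 and 4.79 in animal 2, while Hist3h2ba of the same cluster had 1.38 in animal 1 and 1.28 in animal 2. The lowest H2A gene open in both animals was Hist1h2ab, with 1.40 in animal 1 and 1.02 in animal 2, and it was the only one of the 57 whose tallest peak was missing from the shorter list, in animal 2.

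H3 genes had the widest range of ratios between the animals among the 5 types. Hist1h3e was the tallest H3 gene with a peak of its own, with 9.42 in animal 1 and 8.13 in animal 2. Hist1h3i had 2.63 in animal 1 and 0.910 in animal 2, a log2 ratio of 1.53, the largest of the 57. Hist1h3d had 3.98 in animal 1 and 1.41 in animal 2, a log2 ratio of 1.49. In the other direction, Hist1h3c had 3.79 in animal 1 and 5.85 in animal 2, a log2 ratio of -0.63, and Hist1h3b had 4.36 in animal 1 and 6.08 in animal 2. Of 10 H3 genes, 6 were higher in animal 1, and their log2 ratios ran from -0.63 to 1.53.

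By cluster, heights differed more than the share of open genes. In cluster 1, 46 of 54 genes were open in both animals, and their median mean height was 4.72. In cluster 2, 8 of 10 were, with a median of 6.97, the mean height of 1 peak that counted for Hist2h2ab, Hist2h2ac and Hist2h2be. In animal 2 these 8 genes stood on 5 distinct tallest peaks, and Hist2h2ab had no peak in the 300 bp before its start codon. Both genes of cluster 3 were open in both animals with a median of 3.69, and the gene of cluster 4 had a mean height of 9.65. Within cluster 1, genes fell into 5 runs separated by over 50 kb. The run from Hist1h2bl to Hist1h2br, 121768 bp long, had the lowest median of the 4 runs with peaks, 3.09, and holds the duplicated stretch. The run from Hist1h4h to Hist1h1e had 3.49, the run from Hist1h2ac to Hist1h1a 5.22 and the run from Hist1h2ah to Hist1h2bj 5.81, while the pair Hist1h2ba and Hist1h2aa had no peak. Most peaks inside the runs lay at histone genes: within 1 kb of a histone TSS were 20 of 21 peaks of the run from Hist1h2bl in animal 1 and 22 of 25 in animal 2, and 24 of 32 peaks of the run from Hist1h4h in animal 1 and 21 of 27 in animal 2. Of the 62 other protein-coding genes within 500 kb of cluster 1, 17 (27.4%) were open in both animals, beside 59.8% of all protein-coding genes. Around cluster 2, 28 of 34 neighbours (82.4%) were open in both, around cluster 3 16 of 44 (36.4%) and around cluster 4 7 of 16 (43.8%).

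Histone promoters differed from the genome in how the animals compared. Of the 57 genes, 47 (82.5%) had the taller peak in animal 1, beside 14.6% of all protein-coding genes open in both. The median log2 ratio of animal 1 over animal 2 was 0.42 for the histone genes, against -0.27 for all protein-coding genes. It was 0.24 for H4, 0.31 for H3, 0.61 for H2A, 0.62 for H2B and -0.04 for H1. More than a 2-fold difference was found for 4 of the 57 genes, Hist1h3i, Hist1h3d and the pair Hist1h2ae and Hist1h2bg, beside 0.801% of all genes open in both. The tallest peaks of Hist1h2ae and Hist1h2bg did not overlap between the animals, so their log2 ratio of 1.29 compares different stretches. Over the 51 genes whose tallest peaks overlapped, the median log2 ratio was 0.40. Counted by peak instead of by gene, the 48 distinct peaks before the start codons had a median log2 ratio of 0.34, and 38 were higher in animal 1. Dividing heights by each library's median peak moved the median of all protein-coding genes to -0.02 and that of the histone genes to 0.66. The ranking of the histone promoters was alike in the animals: the log2 heights of those 48 peaks had a Pearson r of 0.90 across peaks, a description of 2 libraries.

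GC content of the peaks moved with this ratio. The tallest histone peaks of animal 1 had a median GC content of 49.1%, against 65% for the other genes. Among the other genes the median log2 ratio was 0.23 at 40 to 45% GC, -0.01 at 45 to 50%, -0.14 at 50 to 55%, -0.20 at 55 to 60% and -0.25 at 60 to 65%. Within the same steps the histone genes had medians of 0.32 (8 genes), 0.60 (27 genes), 0.21 (9 genes), 0.18 (9 genes) and -0.30 (3 genes). At 45 to 50% GC, 26 of 27 histone genes were higher in animal 1, against 49.8% of 404 other genes. At 40 to 45% GC, 5 of 8 histone genes were, against 61.5% of 91 other genes. At 50 to 55% GC, 7 of 9 were, against 35.8% of 987, and at 55 to 60% GC 8 of 9 were, against 22.6% of 2036. At 60 to 65% GC, 1 of 3 was, against 13.9% of 2896 other genes. Genes that share a peak count separately in these steps, so the distinct peaks are fewer than the genes. Peak height moved with the ratio less: when all genes were divided by height into 4 equal groups, 8 of 9 histone genes were higher in animal 1 in the lowest group, against 19.2% of the other genes, and 2 of 5 in the highest group, against 13.5%. Of 68 other genes open within 500 kb of a histone gene, 10 (14.7%) were higher in animal 1. The part of GC content in the ratio was not tested beyond these steps, and with 1 library per animal, animal and library cannot be told apart.

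**Figure D5:**
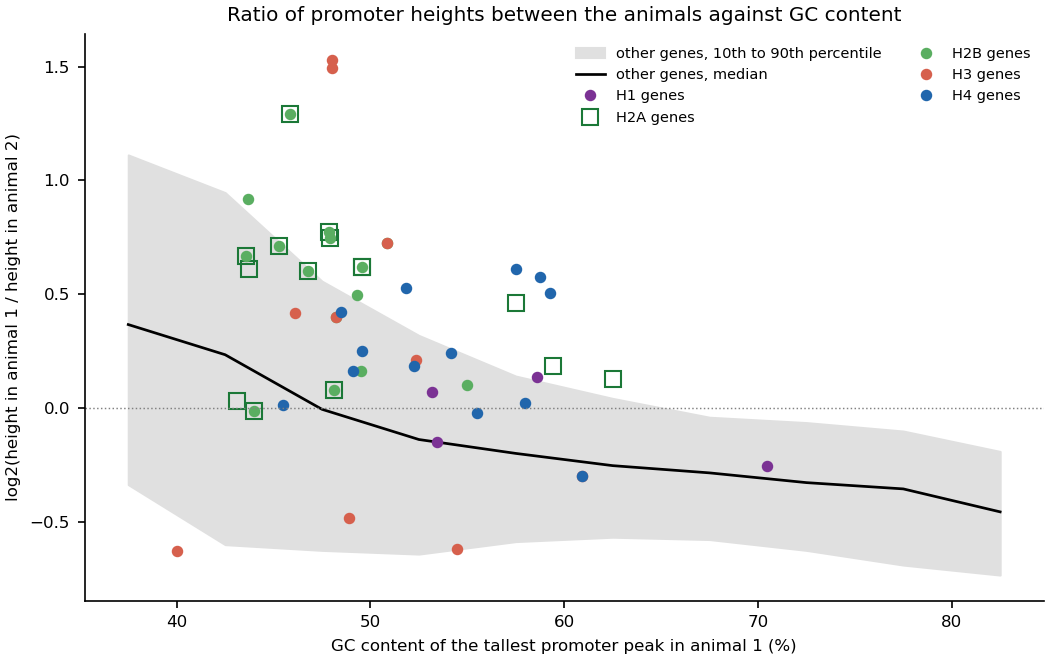
Log2 ratio of promoter height, animal 1 over animal 2 (y axis), against the GC content of the tallest promoter peak in animal 1 (x axis, %) for the 57 histone genes open in both animals, coloured by type; the line and band are the median and the 10th to 90th percentile of the 13059 other genes in steps of 5% GC. Of the histone genes 47 lie above 0, and at 45 to 50% GC 26 of 27 do. Genes that share their tallest peak in both animals have the same values, so distinct points are fewer than genes.

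The listed genes that act on histone genes were all accessible in both animals, beside 59.8% of all protein-coding genes. Of 21 genes of histone transcription and 3' end processing, 21 were open in both animals, and their median mean height was 11.5. Nfya, a subunit of the CCAAT-binding factor NF-Y, was the tallest, with 20.4 in animal 1 and 22.3 in animal 2. Npat, the organiser of histone locus bodies, had 17.9 in animal 1 and 21.2 in animal 2, and Casp8ap2, another part of these bodies, had 17.8 in animal 1 and 16.3 in animal 2. The median log2 ratio of this list was -0.16, and 6 of 21 were higher in animal 1, beside 14.6% of all genes open in both. Of 21 genes of S phase and DNA replication, 21 were open in both animals with a median of 10.3, and 3 of 21 were higher in animal 1, near that share. The tallest of these were Ccne1, with 19.1 in animal 1 and 21.9 in animal 2, Mcm5, with 16.9 in animal 1 and 15.9 in animal 2, and Mcm4, with 15.9 in animal 1 and 16.5 in animal 2.

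Histone genes with other names, most of which encode variants made throughout the cell cycle, were listed by name and not by position. Of 11 such genes, 10 were open in both animals, and their median mean height was 9.45, against 5.18 for the 57 genes above. H2afx, which marks DNA breaks when phosphorylated, had 15.9 in animal 1 and 16.8 in animal 2. H2afv had 15.9 in animal 1 and 16.3 in animal 2, and H2afj had 14.8 in animal 1 and 17.2 in animal 2. H1fx had no peak in animal 1 and one of 0.876 in animal 2. Of the 10, 2 were higher in animal 1, near the 14.6% of all genes open in both.

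The tissue label was checked on marker promoters. All 4 B cell markers were open in both animals, of 3 T cell markers Cd3e and Lck were and Cd4 was not, and of 3 macrophage markers Spic and Cd68 were, with Csf1r open in animal 1 only. The liver genes Alb and Apoa1 and the sperm gene Acrv1 had no promoter peak, and the sperm gene Prm1 had one of 1.40 in animal 1 and 0.849 in animal 2. That is as high as some spleen markers, since Cd3e had 0.838 in animal 1 and 0.930 in animal 2 and Spic 0.566 in animal 1 and 0.407 in animal 2.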

How the data were processed

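DNase-seq peaks, footprints and cut-rate intervals of 2 spleen libraries were analysed as the authors deposited them. Per the deposited file listings, each file was derived from the alignments of its own library to mm10. The aligner and the callers used by the submitters were not given in the sources used here, and no thresholds were found there. The peak height is a signal deposited by the authors whose unit is not stated. Of the distinct heights, 100% in animal 1 and 99.97% in animal 2 were whole multiples of 0.00716 and 0.00679, within 0.01 of a step. The longer lists held 79246 peaks in animal 1 and 77231 in animal 2, with median heights of 0.888 and 1.05. The authors deposited 211394 footprints for animal 1 and 215907 for animal 2, all with the constant 0.01 in place of a p-value. Each interval of the deposited cut-rate files carries a q-value (false discovery rate). Cut totals are not stated, so depth is unknown and counting error was not modelled.

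A gene's height is that of its tallest peak overlapping 1 kb on each side of any GENCODE M21 TSS, and such a peak can belong to a neighbouring gene. The most 5' TSS of Hist1h2be lies 35168 bp from its coding start. The tallest peak of 29 of the histone genes also overlapped the 1 kb window of another coding gene. A footprint was counted in the peak that holds its midpoint. Promoter sequences are from RefSeq and sequence between genes is from GRCm38.p6, the sequence of mm10. Uniqueness counts 32-base words over both strands of chromosomes 1 to 19, X and Y. Scripts used Python 3.11.15, numpy 2.4.6 and matplotlib 3.10.9, and 5 checks on simulated data passed. The histone genes, gene lists and motifs were chosen with earlier results of these data known. Peaks in the 300 bp before the start codon, GC content, neighbouring genes and unique words were added after the data were seen. Genes were named by a rule: any histone gene, and of each other list the 3 with the highest mean height and those without a peak in one or both animals. Marker genes come from a fixed list, and Cd3e and Spic were given values after these were seen. With 1 group of 2 animals no test was run. An SD with n = 2 is the spread of these animals. The labels number them separately, although both carry the same donor entry. Alternatives were other promoter windows and start sites, the shorter peak lists, the higher 50% of peaks, each animal alone, library scaling, overlapping peaks only, other footprint rules and a smaller pair distance.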

Additional observations from a re-analysis of the deposited data

How the results depend on the processing

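With 23 results and their alternatives, 159 values stayed within the spread between the animals or within 1.5 times of a count, 6 moved and 0 changed direction. The median height of H1 was 4.73 with a promoter window of 2 kb and 5.23 with peaks within 300 bp before the start codon. The median height of H3 ranged from 4.36 to 5.85 over each animal alone. With footprints counted 250 bp before to 50 bp after the TSS, the median number was 5 for H2A and 3 for H3, and over each animal alone it ranged from 3.5 to 4 for H3. The cause was not tested. The number of histone genes open in both animals was 65 with the 2 kb window and 55 when the lower 50% of the peaks were left out. The median log2 ratio between the animals ran from 0.21 with the 2 kb window to 0.66 with library scaling. These values counted as unmoved, but the spread used for this result, 0.29, is set by the size of the ratio itself. That label therefore says little about how stable the ratio is. No paired analysis was possible because there is 1 group. With 2 libraries of unknown depth, only the spread between these animals is known, peaks in repeated sequence may be missed, and a peak within 1 kb can belong to a neighbour.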
